A study of Mus musculus with 8 samples.

Results

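The genes for translation initiation factors were compared between neural progenitor cells (NPC) and embryonic stem cells (ESC) of the mouse. They were taken as every gene whose symbol starts with Eif1 to Eif6, without the Eif2c names, which are older symbols of Argonaute genes, and without the Y-linked Eif2s3y. This gave 53 genes of the 21202 named in either deposited table. The NPC samples were 1 clone derived from the ESC line, so any trait of that clone stands in every NPC value. The ESC line was F1-21.6, a hybrid of the 129Sv and Cast/EiJ strains, grown with serum and leukaemia inhibitory factor on fibroblast feeders stopped from dividing with mitomycin C. Both cell types share that hybrid genome, and no treatment is named for either. RNA depleted of ribosomal RNA was sequenced from 2 biological replicates of each cell type with 2 technical libraries each, 8 libraries in all.

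Initiation brings a ribosome with its first transfer RNA to the start codon of a messenger RNA. The factor eIF2 carries the initiator transfer RNA as a GTP-bound complex and is recharged by eIF2B, and kinases that phosphorylate its alpha subunit slow this recharging under stress. eIF1, eIF1A and the large complex eIF3 prepare the small ribosomal subunit, while eIF4F, made of the cap-binding eIF4E, the helicase eIF4A and the scaffold eIF4G, loads it at the cap. The 4E-binding proteins hold eIF4E away from eIF4G until the kinase complex mTORC1 phosphorylates them. eIF5 and eIF5B then help to join the large subunit.

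Levels are given on 2 scales. Exon levels are RPKM (reads scaled to gene length and to library size) that the authors had pooled by cell type, and beside them stand the fold change on the log2 scale, NPC over ESC, and the adjusted p-value of their own test. No replicate values come with them, so their levels have no error. Whether technical libraries counted as replicates in the authors' test is not stated in the sources used. Its p-values may therefore not measure the spread between biological replicates. Intron levels are RPKM per biological replicate, taken here as a measure of unspliced RNA, and were tested with limma on log2(RPKM + 1), a scale that understates the change of low genes. A change was called at an adjusted p under 0.05, provided the gene averaged 1 RPKM or more. Of the 53 genes, 50 stood in the exon table and 48 passed that filter, while all 53 stood in the intron table and 49 passed. Eif4a2, Eif4e and Eif5 were analysed on introns alone, and Eif4g3, Eif4e3, Eif4e1b and Eif2ak1 were under the filter on introns.

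Recovered intron reads numbered 6115541 and 5533447 in NPC replicates 1 and 2, and 6210642 and 6997645 in ESC replicates 1 and 2. The cell type labels were checked on marker genes in the authors' deposited table. The 6 NPC markers, Fabp7, Olig1, Olig2, Pax6, Nes and Vim, summed to 14555 RPKM in NPC and 449.8 RPKM in ESC, while the 6 pluripotency markers summed to 12.6 RPKM in NPC and 5484 RPKM in ESC. The 12 fibroblast markers found in that table summed to 61.4 RPKM in NPC and 92.3 RPKM in ESC, between 0.269 and 35.1 RPKM each in NPC and between 0.634 and 36.0 RPKM each in ESC. Of these, 3 were higher in NPC (Fbn1, Col6a1 and Lum) and the other 9 in ESC, the median was 0.945 RPKM in NPC and 3.81 RPKM in ESC, and 6 were below 1 RPKM in NPC and 1 in ESC. The 5 neuron markers summed to 19.7 RPKM in NPC and 271 RPKM in ESC, with 3 below 1 RPKM in NPC and 2 in ESC. Snap25 (1.16 RPKM in NPC and 0.276 RPKM in ESC) and Rbfox3 (0.145 and 0.0918 RPKM) were higher in NPC and the others in ESC. Stmn2, the highest of the 5 in ESC, stood at 0.792 RPKM in NPC and 160.5 RPKM in ESC. NPC replicate 1 stood apart on introns. The 242 olfactory, vomeronasal and taste receptor genes, known from sensory tissues, had a median of 0.748 intron RPKM there, 0.0829 in NPC replicate 2, 0.0295 in ESC replicate 1 and 0 in ESC replicate 2. All 4 columns are used below, and the results without each are given beside them. The part of this background, of the feeder cells and of cells with neuron markers in the results was not tested.

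Most initiation factor genes had lower exon levels in NPC. Of the 48 tested genes, 32 fell, 3 rose and 13 did not pass in the authors' deposited table. Across all 12509 tested genes, 33.9% fell and 32.3% rose, which makes 66.2% called in either direction. The drop was often large: 25 of the 48 fell by at least 1 on the log2 scale, against 27.0% of all tested genes, and 3 rose by at least 1, against 27.1%. The median log2 fold change of the 48 genes was -1.06, with a range from -3.66 for Eif4ebp1 to 1.70 for Eif4e3, and that of all tested genes was -0.07. Summed over the 48 genes, the authors' pooled RPKM came to 4719.9 in NPC and 9084 in ESC, and the median gene stood at 45.3 RPKM in NPC and 108 RPKM in ESC. In all tested genes the median level ran the other way, at 16.7 RPKM in NPC and 13.8 RPKM in ESC. In these bulk samples, fewer cells with a transcript and less of it per cell cannot be told apart, and RPKM are relative to the library, so a change in total RNA per cell is not measured.

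**Figure D1:**
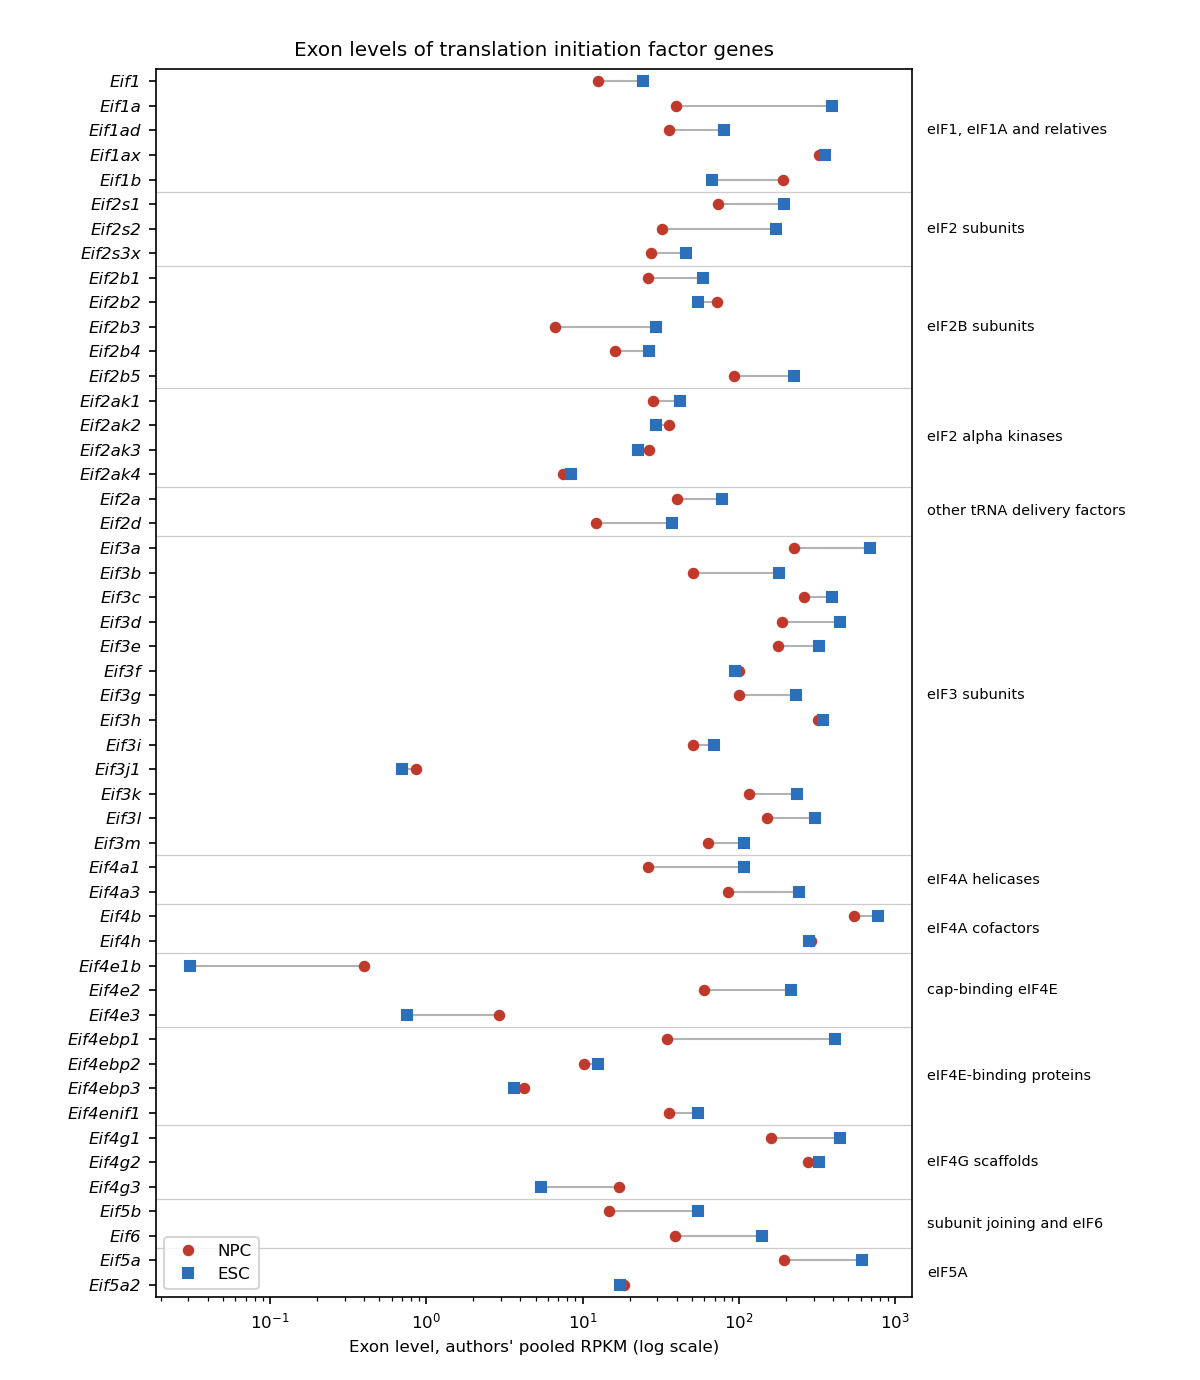
Exon level of each gene in NPC (circles) and ESC (squares) as the authors' pooled RPKM on a log axis, grouped by role, with a line joining both values of a gene. Most circles lie left of their squares; Eif1b, Eif4e3 and Eif4g3 are the 3 called genes with the circle on the right.

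The intron levels moved in the same direction for most genes. Both NPC replicates lay below both ESC replicates in 43 of the 49 tested genes and above them in 3, and the replicates overlapped in 3. Across all 8811 genes tested on introns, these shares were 55.5% below and 21.9% above. Among the members above, Eif2ak4 and Eif4ebp3 reached the filter through their NPC values. Among those below, Eif4ebp1 and Eif2b3 reached it through their ESC values. limma called 24 of the 49 lower and 2 higher, against 34.0% lower and 13.2% higher of all tested genes, or 47.3% in either direction. The median log2 fold change of the 49 was -1.32, and that of all genes tested on introns was -0.43. With every column centred on its median, the median of all tested genes was -0.04 and limma called 24.6% of them lower and 24.8% higher, while 26 of the 49 initiation factor genes were lower, 3 were higher and their median was -0.92. Only Eif4ebp1, Eif2d and Eif5b, among the 26 called genes, kept the call under all 13 alternatives run. Of the 26 calls, 17 were lost with no filter on low values, 10 with the receptor-gene background subtracted, 5 with the replicate block and 4 with no mean-variance trend.

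The replicates of NPC were further apart than those of ESC. NPC replicate 2 was above NPC replicate 1 in 47 of the 53 genes, with a median ratio of 1.84, whereas ESC replicate 2 was above ESC replicate 1 in 28 of 53, with a median ratio of 1.01. Over all genes tested on introns, the median difference of replicate 2 minus replicate 1 was 0.42 in NPC and 0.01 in ESC. That difference was taken on log2(RPKM + 1), whereas the ratios above were of RPKM over all 53 genes. The number of calls followed the replicates kept. Without ESC replicate 1 limma called 6 of the 49 and without ESC replicate 2 it called 5, since the spread then came from the NPC replicates alone. Without NPC replicate 1 it called 45, of which 5 were higher, and without NPC replicate 2 it called 44, of which 2 were higher, but the spread then came from the close ESC replicates alone, with the lone NPC replicate assumed to vary like them. Calls gained without an NPC replicate, here and below, therefore do not show that a change exceeds the spread between NPC replicates. The median log2 fold change stayed between -1.67 without NPC replicate 2 and -0.96 without NPC replicate 1.

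**Figure D2:**
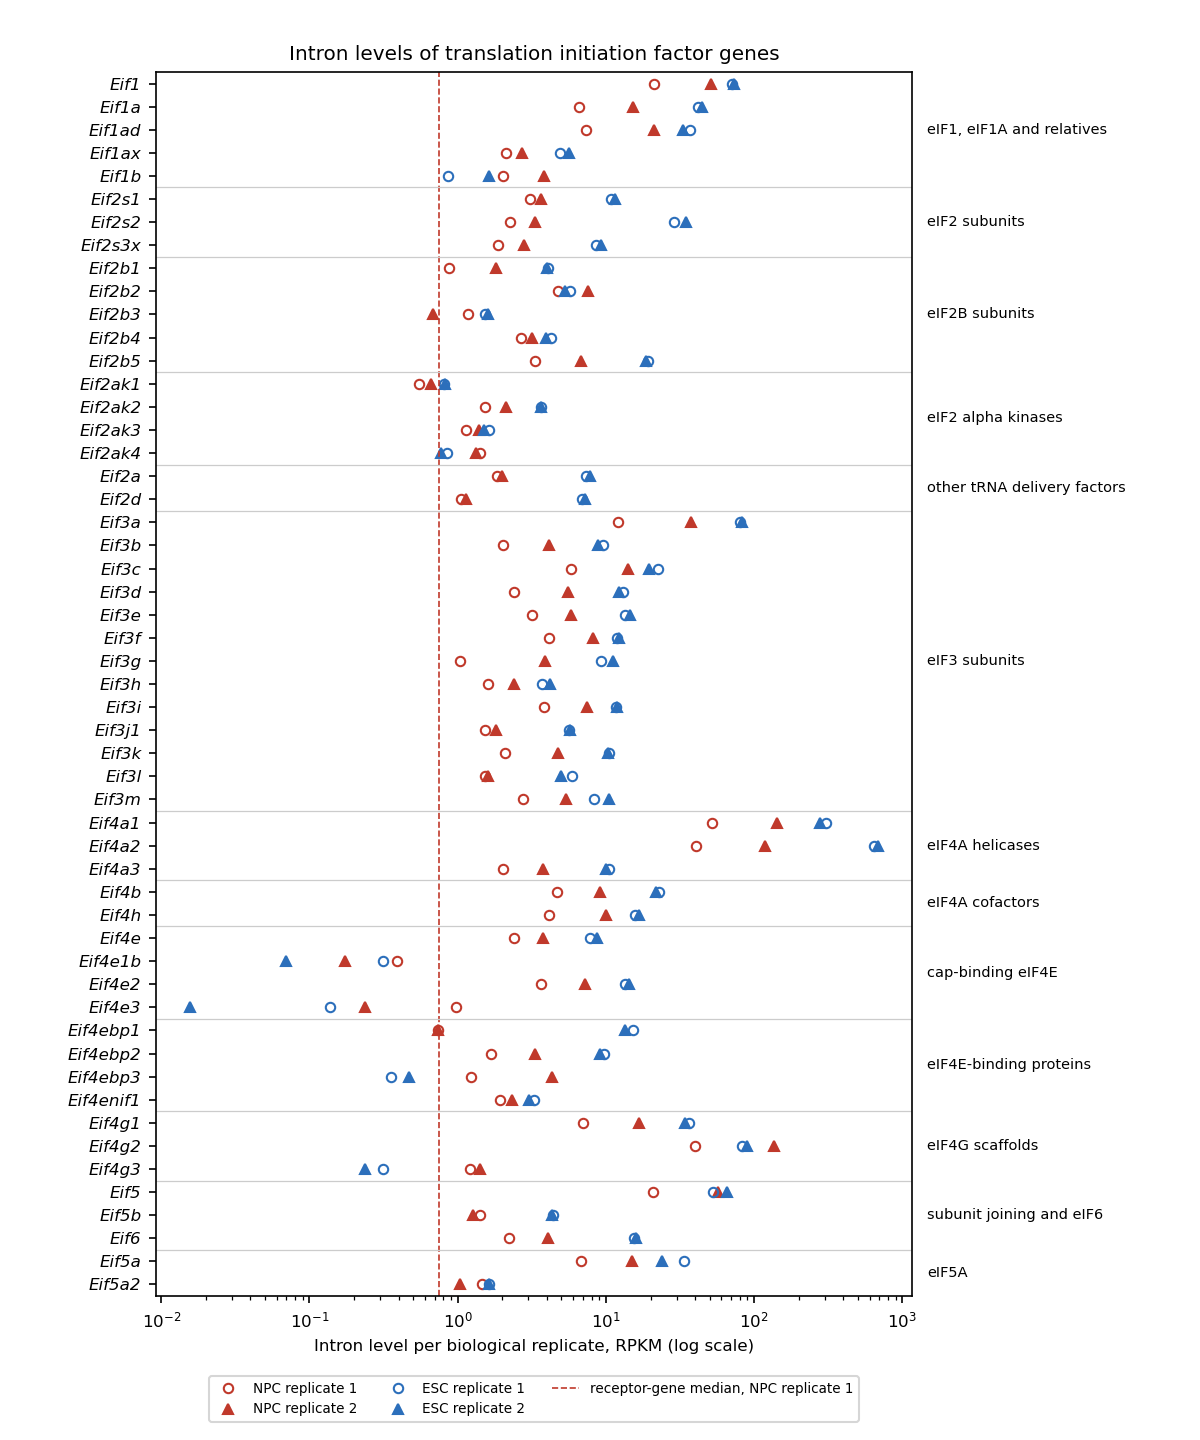
Intron level of each gene in the 2 NPC replicates (red) and the 2 ESC replicates (blue), as RPKM on a log axis; the dashed line marks the receptor-gene median of NPC replicate 1, 0.748 RPKM. The ESC replicates of a gene mostly lie close together, while NPC replicate 1 lies left of NPC replicate 2 in 47 of 53 genes.

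The eIF1 genes moved in opposite directions. The closely related genes Eif1 and Eif1b encode forms of eIF1, which keeps the ribosome from settling on a wrong start codon. Eif1b was the member that rose, at 191 RPKM in NPC and 67.1 RPKM in ESC (log2 fold change 1.34, adjusted p 1.35e-07 in the authors' deposited table). Eif1 fell, at 12.6 RPKM in NPC and 24.4 RPKM in ESC (log2 fold change -1.13, adjusted p 0.00375 in the authors' deposited table). The ratio of Eif1b to Eif1 in exon RPKM was therefore 15.1 in NPC and 2.75 in ESC, and Eif1b made up 93.8% of their summed RPKM in NPC and 73.3% in ESC. On introns Eif1b had 2.01 and 3.85 RPKM in the NPC replicates and 0.864 and 1.62 RPKM in the ESC replicates (limma log2 fold change 0.79 with an SE of 0.26, adjusted p 0.0263). These values rest on 21 and 36 intron reads in NPC and 9 and 19 in ESC, and although the replicates do not overlap, NPC replicate 1 was close to ESC replicate 2. Eif1 introns had 21.0 and 51.3 RPKM in the NPC replicates and 70.7 and 73.6 RPKM in the ESC replicates, all NPC values below all ESC values, and did not pass (limma log2 fold change -1.11 with an SE of 0.85, adjusted p 0.301). In RefSeq stand 3 pseudogenes named Eif1-ps1, Eif1-ps2 and Eif1-ps3, so exon reads of Eif1 may be shared with copies and its exon level is uncertain.

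In the eIF1A pair, Eif1a fell and Eif1ax did not pass on exons. eIF1A works with eIF1 in scanning, and the mouse has the X-linked Eif1ax and the autosomal Eif1a. Eif1a fell to 39.7 RPKM in NPC, against 393 RPKM in ESC (log2 fold change -3.46, adjusted p 1.41e-52 in the authors' deposited table). Eif1ax stood at 327 RPKM in NPC and 355 RPKM in ESC, and did not pass (log2 fold change -0.27, adjusted p 0.348 in the authors' deposited table). Eif1a thus gave 10.8% of the summed RPKM of the pair in NPC and 52.5% in ESC, and the sum itself was 367 RPKM in NPC and 748 RPKM in ESC. The introns of Eif1a had 6.59 and 15.2 RPKM in the NPC replicates and 41.5 and 44.8 RPKM in the ESC replicates, without overlap, and missed the threshold (limma log2 fold change -1.99 with an SE of 0.79, adjusted p 0.0548). Those of Eif1ax had 2.13 and 2.70 RPKM in the NPC replicates and 4.93 and 5.67 RPKM in the ESC replicates and were called lower (limma log2 fold change -0.89 with an SE of 0.30, adjusted p 0.0292). The relative Eif1ad, which carries an eIF1A domain, fell at 35.7 RPKM in NPC and 80.1 RPKM in ESC (log2 fold change -1.32, adjusted p 3.06e-07 in the authors' deposited table), and its introns had 7.36 and 21.1 RPKM in the NPC replicates and 37.2 and 33.1 RPKM in the ESC replicates (limma log2 fold change -1.41 with an SE of 0.81, adjusted p 0.169). Neither intron call, that of Eif1b and that of Eif1ax, was kept without ESC replicate 1 (limma adjusted p 0.538 and 0.403) or without ESC replicate 2 (0.0857 and 0.505), and the call of Eif1b was also lost without NPC replicate 2 (0.174). Eif1b lost its call under 7 of the 13 alternatives in all. The others were no filter (limma adjusted p 0.234), no mean-variance trend (0.119), voom on the recovered reads (0.154) and subtraction of the receptor-gene background, which gave a log2 fold change of 0.58 (0.332). Eif1ax lost its call under 5, among them no filter (0.0720), the replicate block (0.0550) and the background subtraction (0.138). Over the 13 alternatives the adjusted p of these genes ran between 0.00448 and 0.538. Eif1, Eif1a and Eif1ad, not called above, passed without NPC replicate 1 (adjusted p at most 0.0264) and without NPC replicate 2 (at most 0.00135), and ranged between 0.00105 and 0.839 over the alternatives.

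Promoter sequences are shown for Eif1b with Eif1 here and for Eif4g3 with Eif4g1 further on, pairs in which 1 relative rose and the other fell. Eif4e3 rose and Eif4e2 fell as well, and their promoters are not shown. The sequences shown come from the RefSeq promoter table on build GRCm38.p6, not the build of the deposited values. They run from 150 bases before the start to 20 bases after it, 170 bases in all, on the strand of the gene. Capitals mark the E-box CACGTG, a site for MYC and related factors, and the ETS motif CCGGAAG, searched on both strands.
Eif1b, chr9:120492456-120492625, plus strand: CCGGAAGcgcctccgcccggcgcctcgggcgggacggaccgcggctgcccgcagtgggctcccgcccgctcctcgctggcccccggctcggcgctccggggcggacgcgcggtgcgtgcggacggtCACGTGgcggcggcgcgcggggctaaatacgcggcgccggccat
Eif1, chr11:100319799-100319968, plus strand: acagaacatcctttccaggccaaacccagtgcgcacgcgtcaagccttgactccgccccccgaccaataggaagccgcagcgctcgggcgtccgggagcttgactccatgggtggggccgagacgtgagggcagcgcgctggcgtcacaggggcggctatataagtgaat
Eif4g3, chr4:137993305-137993474, plus strand: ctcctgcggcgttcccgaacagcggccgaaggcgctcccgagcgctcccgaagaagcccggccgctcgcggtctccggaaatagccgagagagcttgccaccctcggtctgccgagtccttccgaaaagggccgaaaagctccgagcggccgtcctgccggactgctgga
Eif4g1, chr16:20672577-20672746, plus strand: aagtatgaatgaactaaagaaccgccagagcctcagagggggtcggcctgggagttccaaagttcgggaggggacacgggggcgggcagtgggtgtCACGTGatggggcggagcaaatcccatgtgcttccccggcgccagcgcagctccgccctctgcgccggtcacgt
The Eif1b window held both motifs, the Eif4g1 window held the E-box, and the windows of Eif1 and Eif4g3 held neither. Among the genes shown, an E-box therefore stood in 1 that rose and 1 that fell. In the longer window of 250 bases before to 50 after the start, 42 of the 53 genes had an entry. CACGTG stood in 8 of them (19.0%), against 7.24% of all 27025 promoters and 10.6% of the 9455 promoters of genes tested on exons. CCGGAAG stood in 14 (33.3%), against 9.12% of all promoters and 18.1% of those of tested genes. The NRF1 motif GCGCATGCG stood in 3 (7.14%), against 1.81% and 4.01%, and the YY1 motif AAGATGGCG in 0, against 1.49% and 3.25%. The 4 motifs were counted separately, and shared bases between them were not excluded. These are matches of letters and were not tied to binding.

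All 3 tested subunits of eIF2 fell on exons and on introns. Among all tested genes, 33.9% fell on exons and 34.0% on introns. The beta subunit gene Eif2s2, starting at chromosome 2, position 154718642, minus strand (mm9, as for all starts given here), fell most, to 32.0 RPKM in NPC, against 173 RPKM in ESC (log2 fold change -2.61, adjusted p 1.07e-34 in the authors' deposited table). The alpha subunit gene Eif2s1, whose product is the target of the stress kinases, fell to 73.1 RPKM in NPC, against 195 RPKM in ESC (log2 fold change -1.61, adjusted p 8.84e-12 in the authors' deposited table). Eif2s3x, the X-linked gene of the GTP-binding gamma subunit, fell to 27.5 RPKM in NPC, against 45.9 RPKM in ESC (log2 fold change -0.84, adjusted p 0.00895 in the authors' deposited table). In exon RPKM, Eif2s2 stood at 0.438 of Eif2s1 in NPC and 0.890 in ESC, and its share of the 3 summed levels was 24.1% in NPC and 41.9% in ESC. These exon shares have no replicate error, and the difference between subunit genes was not tested. RefSeq names a pseudogene Eif2s3x-ps1, so exon reads of Eif2s3x may be shared with it and its exon level is uncertain. The introns of Eif2s2 had 2.26 and 3.35 RPKM in the NPC replicates and 29.0 and 34.6 RPKM in the ESC replicates (limma log2 fold change -3.12 with an SE of 0.58, adjusted p 0.00126). Those of Eif2s1 had 3.07 and 3.64 RPKM in the NPC replicates and 10.8 and 11.6 RPKM in the ESC replicates (limma log2 fold change -1.49 with an SE of 0.44, adjusted p 0.0158). The introns of Eif2s3x had 1.88 and 2.82 RPKM in the NPC replicates and 8.62 and 9.29 RPKM in the ESC replicates (limma log2 fold change -1.58 with an SE of 0.37, adjusted p 0.00465). In each gene the NPC replicates lay well below the ESC replicates, with no overlap. None of the 3 calls passed without ESC replicate 1 (limma adjusted p between 0.118 and 0.416) or without ESC replicate 2 (between 0.142 and 0.463), and their range over the 13 alternatives was 4.35e-05 to 0.463.

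Of the 5 subunit genes of eIF2B, the exchange factor that recharges eIF2, 4 fell on exons, against 33.9% of all tested genes. On introns 2 of the 5 were called lower, against 34.0% of all genes tested on introns. Its catalytic epsilon subunit gene Eif2b5 fell to 93.3 RPKM in NPC, against 224 RPKM in ESC (log2 fold change -1.40, adjusted p 3.44e-09 in the authors' deposited table). Eif2b3, for the gamma subunit, fell furthest, to 6.67 RPKM in NPC, against 29.7 RPKM in ESC (log2 fold change -2.30, adjusted p 1.24e-15 in the authors' deposited table). Eif2b1, for the alpha subunit, fell to 26.2 RPKM in NPC, against 59.1 RPKM in ESC (log2 fold change -1.31, adjusted p 2.54e-06 in the authors' deposited table), and Eif2b4, for the delta subunit, to 16.2 RPKM in NPC, against 26.8 RPKM in ESC (log2 fold change -0.87, adjusted p 0.00665 in the authors' deposited table). Eif2b2, for the beta subunit, did not pass, at 72.9 RPKM in NPC and 54.5 RPKM in ESC (log2 fold change 0.31, adjusted p 0.358 in the authors' deposited table). Its share of the summed subunit levels was 33.9% in NPC and 13.8% in ESC. On introns the same subunit overlapped between the cell types, with 4.77 and 7.51 RPKM in the NPC replicates and 5.69 and 5.30 RPKM in the ESC replicates (limma log2 fold change 0.11 with an SE of 0.43, adjusted p 0.846). Eif2b5 introns had 3.32 and 6.81 RPKM in the NPC replicates and 19.3 and 18.5 RPKM in the ESC replicates (limma log2 fold change -1.78 with an SE of 0.59, adjusted p 0.0276), and Eif2b1 introns had 0.875 and 1.81 RPKM in the NPC replicates and 4.09 and 3.99 RPKM in the ESC replicates (limma log2 fold change -1.13 with an SE of 0.25, adjusted p 0.00323). Both were called lower and neither overlapped. For Eif2b3 the introns had 1.17 and 0.681 RPKM in the NPC replicates and 1.53 and 1.61 RPKM in the ESC replicates (limma log2 fold change -0.43 with an SE of 0.19, adjusted p 0.0838), and for Eif2b4 2.68 and 3.16 RPKM in the NPC replicates and 4.28 and 3.93 RPKM in the ESC replicates (limma log2 fold change -0.38 with an SE of 0.29, adjusted p 0.285), neither of which passed. Eif2b1 lost its call with no filter on low values (limma adjusted p 0.0830). Eif2b5 lost it with no filter (0.0738), with the replicate block (0.0812), without ESC replicate 1 (0.531) and without ESC replicate 2 (0.540), with 0.000226 to 0.540 as the range of both called genes over the alternatives. Without NPC replicate 1, Eif2b2 and Eif2b3 passed (at most 0.0352), and without NPC replicate 2, Eif2b4 passed (0.0217) while the fold change of Eif2b2 turned to -0.17. These 3 genes ranged between 0.00626 and 0.996 over the alternatives.

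Of the 4 kinase genes for eIF2 alpha, 1 fell on exons and 3 did not pass, while 33.9% of all tested genes fell. Their summed level was 98.1 RPKM in NPC and 102 RPKM in ESC. Eif2ak1, the haem-regulated kinase HRI, was the one that fell, at 28.3 RPKM in NPC and 41.9 RPKM in ESC (log2 fold change -0.68, adjusted p 0.0193 in the authors' deposited table). The RNA-activated kinase PKR, gene Eif2ak2, stood at 35.6 RPKM in NPC and 29.6 RPKM in ESC (log2 fold change 0.07, adjusted p 0.828 in the authors' deposited table). PERK of the endoplasmic reticulum, gene Eif2ak3, stood at 26.7 RPKM in NPC and 22.5 RPKM in ESC (log2 fold change 0.12, adjusted p 0.701 in the authors' deposited table). GCN2, the sensor of uncharged transfer RNA encoded by Eif2ak4, stood at 7.50 RPKM in NPC and 8.44 RPKM in ESC (log2 fold change -0.30, adjusted p 0.389 in the authors' deposited table). None of these 3 passed. On introns Eif2ak2 was called lower, with 1.53 and 2.13 RPKM in the NPC replicates and 3.66 and 3.65 RPKM in the ESC replicates (limma log2 fold change -0.73 with an SE of 0.24, adjusted p 0.0258). Eif2ak4 introns had 1.41 and 1.34 RPKM in the NPC replicates and 0.846 and 0.768 RPKM in the ESC replicates, so that both NPC values were above both ESC values, without passing (limma log2 fold change 0.39 with an SE of 0.17, adjusted p 0.0821). Eif2ak4 reached the filter through its NPC values, and with the receptor-gene background subtracted its log2 fold change was 0.11 (limma adjusted p 0.831). Eif2ak3 introns had 1.14 and 1.39 RPKM in the NPC replicates and 1.62 and 1.505 RPKM in the ESC replicates (limma log2 fold change -0.18 with an SE of 0.18, adjusted p 0.422), and Eif2ak1, untested on introns, had 0.549 and 0.665 RPKM in the NPC replicates and 0.810 and 0.823 RPKM in the ESC replicates. Eif2ak2 lost its call under 7 of the 13 alternatives, among them centred columns (limma adjusted p 0.0783), the background subtraction (0.127), without ESC replicate 1 (0.363) and without ESC replicate 2 (0.376), within a range of 0.00360 to 0.376 over the alternatives. Eif2ak4 passed without NPC replicate 1 (0.0186) and without NPC replicate 2 (0.0145), within a range over both genes that did not pass of 0.0145 to 0.832.

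A pair of factors that can deliver transfer RNA without eIF2 fell on both scales. Among all tested genes, 33.9% fell on exons and 34.0% on introns. Eif2d dropped to 12.1 RPKM in NPC, against 37.4 RPKM in ESC (log2 fold change -1.76, adjusted p 1.89e-11 in the authors' deposited table), and its introns had 1.05 and 1.15 RPKM in the NPC replicates and 6.91 and 7.19 RPKM in the ESC replicates (limma log2 fold change -1.94 with an SE of 0.26, adjusted p 0.000153). The replicates of each cell type were close together, and this intron call held under all 13 alternatives. Eif2a, a separate gene from the alpha subunit of eIF2 despite its symbol, fell to 40.1 RPKM in NPC, against 78.3 RPKM in ESC (log2 fold change -1.11, adjusted p 7.48e-06 in the authors' deposited table). Its introns had 1.83 and 2.00 RPKM in the NPC replicates and 7.31 and 7.77 RPKM in the ESC replicates (limma log2 fold change -1.55 with an SE of 0.32, adjusted p 0.00211), a call lost without ESC replicate 1 (limma adjusted p 0.102) and without ESC replicate 2 (0.122). Over the alternatives the adjusted p of both genes ran between 1.5e-07 and 0.122.

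Most subunit genes of eIF3, the largest initiation complex, had lower exon levels in NPC. Of the 12 tested subunit genes, 9 fell in the authors' deposited table, against 33.9% of all tested genes. Of these, 7 fell by at least 1 on the log2 scale, against 27.0% of all tested genes. The other 3 subunit genes did not pass, and 0 rose. The median log2 fold change was -1.09, with a range from -1.95 to -0.02. Summed over the subunits, the level was 1803 RPKM in NPC and 3428 RPKM in ESC. The largest drops were those of Eif3b and Eif3a: Eif3b stood at 51.0 RPKM in NPC and 179 RPKM in ESC (log2 fold change -1.95, adjusted p 3.91e-19 in the authors' deposited table), and Eif3a at 226 RPKM in NPC and 694 RPKM in ESC (log2 fold change -1.78, adjusted p 6.64e-16 in the authors' deposited table). Next came Eif3g at 100.2 RPKM in NPC and 233 RPKM in ESC (log2 fold change -1.42, adjusted p 1.08e-08 in the authors' deposited table), and Eif3d, whose product can bind the cap of some messenger RNAs, at 188 RPKM in NPC and 442 RPKM in ESC (log2 fold change -1.35, adjusted p 4.35e-08 in the authors' deposited table). Eif3k stood at 115 RPKM in NPC and 236 RPKM in ESC (log2 fold change -1.17, adjusted p 3.13e-06 in the authors' deposited table), and its partner Eif3l at 151 RPKM in NPC and 308 RPKM in ESC (log2 fold change -1.17, adjusted p 3.44e-07 in the authors' deposited table). Eif3e was at 177 RPKM in NPC and 326 RPKM in ESC (log2 fold change -1.01, adjusted p 0.000588 in the authors' deposited table), Eif3m at 63.8 RPKM in NPC and 107 RPKM in ESC (log2 fold change -0.96, adjusted p 0.000309 in the authors' deposited table), and Eif3c at 259 RPKM in NPC and 393 RPKM in ESC (log2 fold change -0.75, adjusted p 0.00105 in the authors' deposited table). All of these were lower in NPC, while the 3 subunits Eif3f, Eif3h and Eif3i did not pass. Eif3f stood at 99.6 RPKM in NPC and 94.0 RPKM in ESC (log2 fold change -0.02, adjusted p 0.969 in the authors' deposited table). Eif3h, whose product like that of Eif3f carries an MPN domain, stood at 320.5 RPKM in NPC and 346 RPKM in ESC (log2 fold change -0.25, adjusted p 0.335 in the authors' deposited table). Eif3i stood at 50.5 RPKM in NPC and 69.3 RPKM in ESC (log2 fold change -0.55, adjusted p 0.0899 in the authors' deposited table). Eif3e has pseudogenes in RefSeq under its older symbol Eif3s6, and Eif3j1, at 0.859 RPKM in NPC and 0.704 RPKM in ESC and untested, has the near-identical copy Eif3j2, so exon levels of both are uncertain.

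On introns all 13 subunit genes had both NPC replicates below both ESC replicates, against 55.5% of all genes tested on introns. Of the 13, limma called 8 lower, against 34.0% of all genes tested. The highest level belonged to Eif3a, with 12.2 and 37.5 RPKM in the NPC replicates and 80.5 and 82.5 RPKM in the ESC replicates, which did not pass (limma log2 fold change -1.88 with an SE of 0.88, adjusted p 0.0971). Eif3g showed the lowest NPC values relative to ESC among the called subunits, with 1.03 and 3.89 RPKM in the NPC replicates and 9.23 and 11.1 RPKM in the ESC replicates (limma log2 fold change -1.82 with an SE of 0.46, adjusted p 0.00691). Eif3d had 2.40 and 5.58 RPKM in the NPC replicates and 13.03 and 12.3 RPKM in the ESC replicates (limma log2 fold change -1.53 with an SE of 0.51, adjusted p 0.0277), and Eif3e had 3.19 and 5.85 RPKM in the NPC replicates and 13.5 and 14.6 RPKM in the ESC replicates (limma log2 fold change -1.49 with an SE of 0.53, adjusted p 0.0359). In each of these NPC replicate 1 was the lowest value. Eif3k had 2.09 and 4.71 RPKM in the NPC replicates and 10.6 and 10.3 RPKM in the ESC replicates (limma log2 fold change -1.45 with an SE of 0.46, adjusted p 0.0224), and Eif3b had 2.01 and 4.13 RPKM in the NPC replicates and 9.61 and 8.80 RPKM in the ESC replicates (limma log2 fold change -1.37 with an SE of 0.42, adjusted p 0.0194). Eif3l had 1.52 and 1.61 RPKM in the NPC replicates and 5.89 and 4.98 RPKM in the ESC replicates (limma log2 fold change -1.32 with an SE of 0.26, adjusted p 0.0017), and Eif3j1 had 1.53 and 1.81 RPKM in the NPC replicates and 5.60 and 5.73 RPKM in the ESC replicates (limma log2 fold change -1.32 with an SE of 0.27, adjusted p 0.00205); in this pair the NPC replicates were close to each other. Eif3h, not called on exons, had 1.59 and 2.40 RPKM in the NPC replicates and 3.68 and 4.22 RPKM in the ESC replicates (limma log2 fold change -0.74 with an SE of 0.26, adjusted p 0.0341). The 5 subunits that did not pass were Eif3a, Eif3c with 5.79 and 14.1 RPKM in the NPC replicates and 22.4 and 19.7 RPKM in the ESC replicates, Eif3f with 4.16 and 8.13 RPKM in the NPC replicates and 11.9 and 12.3 RPKM in the ESC replicates, Eif3i with 3.80 and 7.51 RPKM in the NPC replicates and 11.8 and 11.9 RPKM in the ESC replicates and Eif3m with 2.77 and 5.39 RPKM in the NPC replicates and 8.33 and 10.5 RPKM in the ESC replicates. None of the 8 calls passed without ESC replicate 1 (adjusted p between 0.0795 and 0.537) or without ESC replicate 2 (between 0.0548 and 0.580). Eif3h lost its call under 8 of the 13 alternatives, centred columns among them (limma adjusted p 0.0811). Over the alternatives the adjusted p of the 8 ran between 0.000411 and 0.580. All 5 of the others passed without NPC replicate 1 (at most 0.0280) and without NPC replicate 2 (at most 0.00401), within a range of 0.00103 to 0.809.

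**Figure D3:**
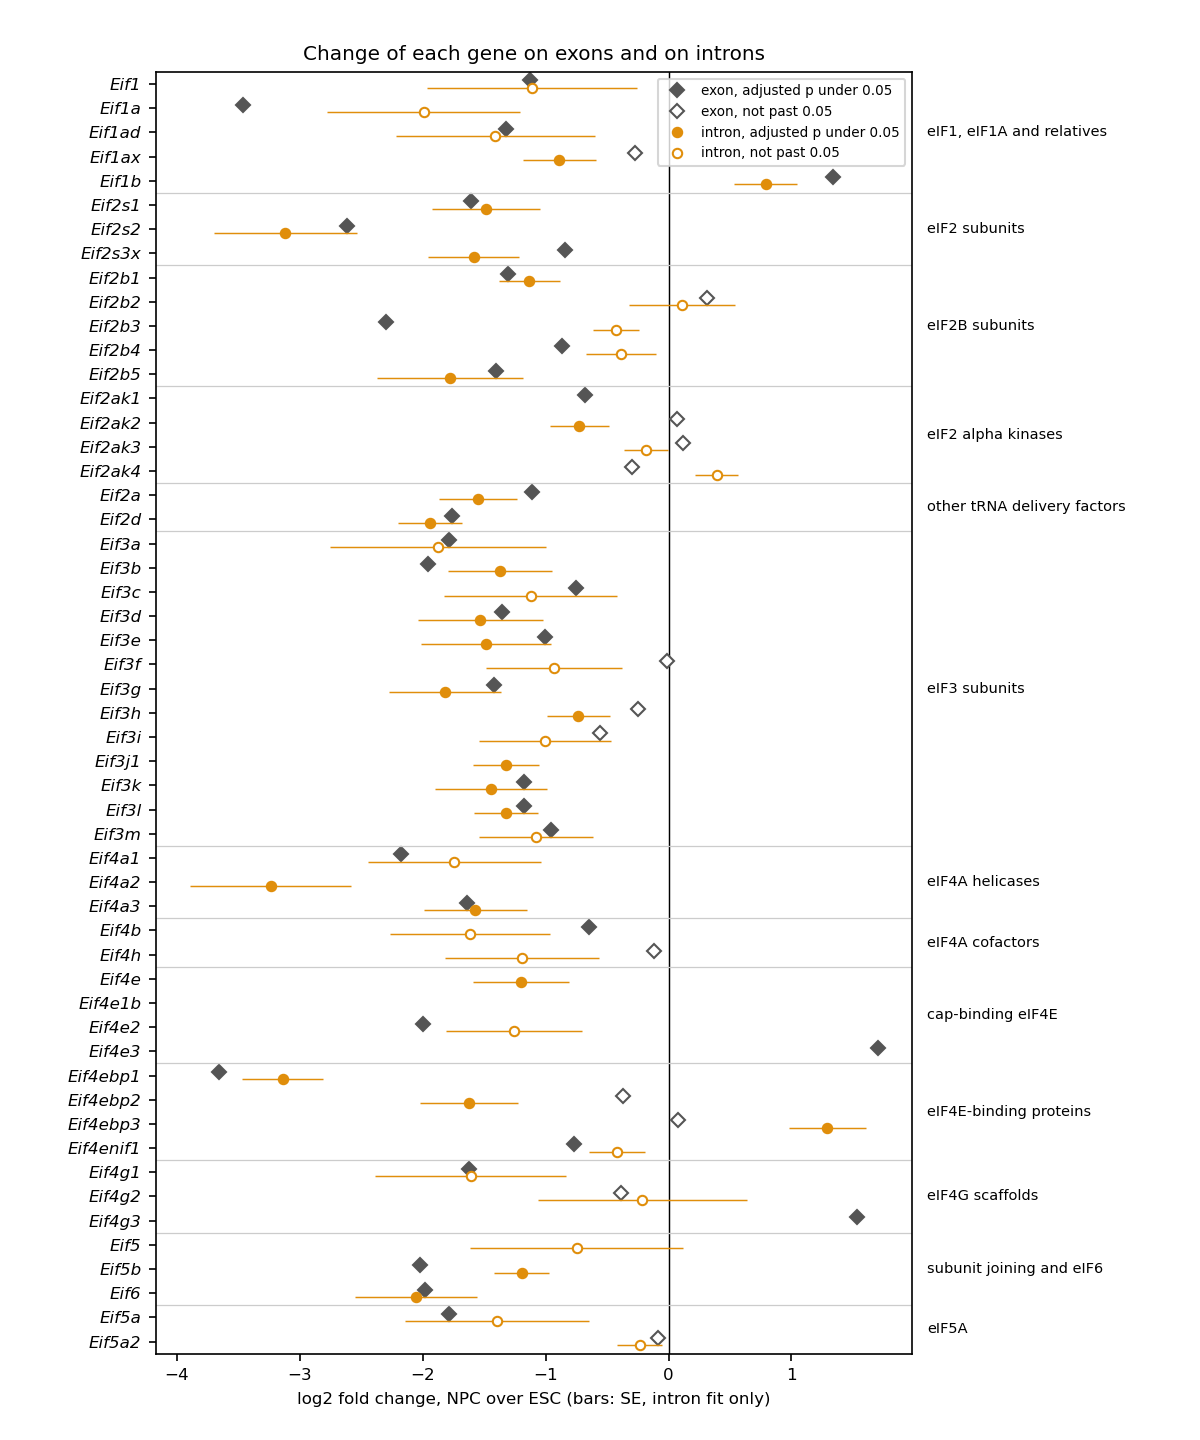
Log2 fold change of NPC over ESC for each gene on exons (diamonds, the authors' deposited values) and on introns (circles with bars of 1 SE from limma), filled where the adjusted p was under 0.05 and open where it was not. Most symbols lie left of 0, down to -3.66 for Eif4ebp1 on exons; Eif1b, Eif4e3 and Eif4g3 lie right of 0 on exons and Eif1b and Eif4ebp3 on introns as called genes.

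In the cap-binding complex the scaffold genes took another order by level. Eif4g1, the main scaffold, which starts at chromosome 16, position 20672822, plus strand, fell to 159.7 RPKM in NPC, against 446 RPKM in ESC (log2 fold change -1.63, adjusted p 2.38e-13 in the authors' deposited table). Eif4g3, a close relative that also binds eIF4E, starts at chromosome 4, position 137549385, plus strand, and rose, at 17.2 RPKM in NPC and 5.42 RPKM in ESC (log2 fold change 1.53, adjusted p 1.16e-08 in the authors' deposited table). Eif4g2, which encodes a shorter form (DAP5) without the eIF4E-binding part, did not pass, at 275 RPKM in NPC and 326 RPKM in ESC (log2 fold change -0.39, adjusted p 0.139 in the authors' deposited table). The most abundant scaffold transcript was thus Eif4g2 in NPC, with 60.9% of the summed RPKM, and Eif4g1 in ESC, with 57.3%. Eif4g1 gave 35.3% in NPC, and Eif4g2 gave 42.0% in ESC. The share of Eif4g3 was 3.80% in NPC and 0.697% in ESC, and the ratio of Eif4g1 to Eif4g3 was 9.29 in NPC and 82.2 in ESC. The introns of Eif4g3 had 1.21 and 1.42 RPKM in the NPC replicates and 0.314 and 0.238 RPKM in the ESC replicates. Both NPC replicates were thus higher, on 1235 and 1306 reads in NPC and 320 and 274 in ESC. The intron mean of Eif4g3 was under the filter and it was not tested. NPC replicate 1 was the library with the raised receptor-gene median, 0.748 RPKM, and the part of that background in its Eif4g3 value was not tested. Eif4g1 introns had 6.95 and 16.8 RPKM in the NPC replicates and 36.4 and 34.3 RPKM in the ESC replicates, without overlap, and did not pass (limma log2 fold change -1.61 with an SE of 0.78, adjusted p 0.108). For Eif4g2 the introns had 39.7 and 136 RPKM in the NPC replicates and 82.5 and 89.0 RPKM in the ESC replicates (limma log2 fold change -0.21 with an SE of 0.85, adjusted p 0.849): the NPC replicates lay on either side of both ESC replicates. Without NPC replicate 1 the Eif4g2 change turned to 0.66 and passed (limma adjusted p 0.0162), and without NPC replicate 2 it was -1.09 and passed as well (0.00400), so its direction depends on which NPC replicate is kept. Eif4g1 also passed without either NPC replicate. Both genes ranged between 0.00107 and 0.972 over the alternatives.

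Of the genes for 4E-binding proteins, which block cap-dependent initiation, Eif4ebp1 fell on exons and both relatives did not pass. Eif4ebp1, starting at chromosome 8, position 28370799, plus strand, had the largest exon drop of all 48 tested genes, to 34.7 RPKM in NPC, against 414 RPKM in ESC (log2 fold change -3.66, adjusted p 9.18e-41 in the authors' deposited table). Eif4ebp2 stood at 10.2 RPKM in NPC and 12.5 RPKM in ESC (log2 fold change -0.37, adjusted p 0.434 in the authors' deposited table), and Eif4ebp3 at 4.22 RPKM in NPC and 3.64 RPKM in ESC (log2 fold change 0.07, adjusted p 0.935 in the authors' deposited table), and neither passed. The summed level of the 3 genes was 49.1 RPKM in NPC and 429.9 RPKM in ESC. Eif4ebp1 gave 70.7% of it in NPC and 96.2% in ESC, while Eif4ebp2 gave 20.7% in NPC and 2.92% in ESC. Eif4ebp1 exceeded Eif4ebp2 by 3.41-fold in NPC and 33.0-fold in ESC. Eif4ebp1 introns had 0.734 and 0.739 RPKM in the NPC replicates and 15.1 and 13.5 RPKM in the ESC replicates (limma log2 fold change -3.14 with an SE of 0.33, adjusted p 4.43e-05), so that NPC replicate 1 was at the receptor-gene median of that library, 0.748 RPKM. Eif4ebp1 reached the intron filter through its ESC values, and its intron call held under all 13 alternatives. Eif4ebp2 had lower introns, with 1.67 and 3.31 RPKM in the NPC replicates and 9.74 and 9.18 RPKM in the ESC replicates (limma log2 fold change -1.62 with an SE of 0.40, adjusted p 0.00612). Eif4ebp3 was called higher on introns, with 1.23 and 4.33 RPKM in the NPC replicates and 0.354 and 0.471 RPKM in the ESC replicates (limma log2 fold change 1.29 with an SE of 0.31, adjusted p 0.00589), on 7 and 22 reads in NPC and 2 and 3 in ESC. It reached the filter through its NPC values, and it lost the call with no filter, with no mean-variance trend and with voom on the recovered reads. Eif4enif1, whose product carries eIF4E into the nucleus, fell on exons, at 35.7 RPKM in NPC and 54.7 RPKM in ESC (log2 fold change -0.77, adjusted p 0.00154 in the authors' deposited table), and had intron levels of 1.92 and 2.32 RPKM in the NPC replicates and 3.27 and 3.05 RPKM in the ESC replicates (limma log2 fold change -0.42 with an SE of 0.23, adjusted p 0.154). The intron call of Eif4ebp2 was lost without ESC replicate 1 (limma adjusted p 0.217) and without ESC replicate 2 (0.215) and with no filter (0.0622), within 4.59e-11 to 0.217 for the 3 called genes over the alternatives. Eif4enif1 passed without NPC replicate 2 (0.0162, within 0.0162 to 0.907).

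Among the cap-binding proteins themselves, Eif4e was measured on introns alone, with 2.41 and 3.75 RPKM in the NPC replicates and 7.83 and 8.67 RPKM in the ESC replicates, lower in NPC without overlap (limma log2 fold change -1.20 with an SE of 0.39, adjusted p 0.0257). Eif4e2, which encodes a cap-binding protein (4EHP) that represses translation, fell to 60.1 RPKM in NPC, against 216 RPKM in ESC (log2 fold change -1.99, adjusted p 4.65e-19 in the authors' deposited table). Its introns had 3.67 and 7.25 RPKM in the NPC replicates and 13.4 and 14.3 RPKM in the ESC replicates (limma log2 fold change -1.26 with an SE of 0.55, adjusted p 0.0805). Eif4e3, an atypical family member, rose at low levels, with 2.92 RPKM in NPC and 0.752 RPKM in ESC (log2 fold change 1.70, adjusted p 0.0247 in the authors' deposited table). It passed the exon filter through its NPC level. Its introns had 0.975 and 0.237 RPKM in the NPC replicates and 0.137 and 0.0157 RPKM in the ESC replicates, on 221 and 48 reads in NPC and 31 and 4 in ESC, under the filter. The NPC replicate 1 value there was the highest, in the library with the raised receptor-gene median. Eif4e1b, known as an oocyte form, stood at 0.399 RPKM in NPC and 0.0310 RPKM in ESC and was untested. The intron call of Eif4e was lost without ESC replicate 1 (limma adjusted p 0.435) and without ESC replicate 2 (0.4998), within 0.00179 to 0.4998 over the alternatives, and Eif4e2 passed without NPC replicate 1 (0.00513) and without NPC replicate 2 (0.00129), within 0.00129 to 0.691.

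Both helicase genes in the exon table fell, against 33.9% of all tested genes. The introns of Eif4a1 and Eif4a2 were among the highest of the set. Eif4a1, for the helicase of eIF4F, fell to 26.2 RPKM in NPC, against 108 RPKM in ESC (log2 fold change -2.17, adjusted p 5.25e-15 in the authors' deposited table). Eif4a3, whose product sits in the exon junction complex rather than in eIF4F, fell to 84.6 RPKM in NPC, against 243 RPKM in ESC (log2 fold change -1.64, adjusted p 9.51e-08 in the authors' deposited table). Eif4a2, the relative of Eif4a1 that starts at chromosome 16, position 23107552, plus strand, had introns of 40.4 and 118 RPKM in the NPC replicates and 639 and 681 RPKM in the ESC replicates, the highest ESC values of the 53 genes, and was called lower (limma log2 fold change -3.23 with an SE of 0.66, adjusted p 0.00204). Eif4a1 introns had 52.2 and 142 RPKM in the NPC replicates and 306 and 276 RPKM in the ESC replicates (limma log2 fold change -1.74 with an SE of 0.71, adjusted p 0.0609), and Eif4a3 introns had 2.03 and 3.74 RPKM in the NPC replicates and 10.5 and 10.1 RPKM in the ESC replicates (limma log2 fold change -1.57 with an SE of 0.42, adjusted p 0.01). RefSeq names a pseudogene Eif4a-ps4, so exon reads of Eif4a1 may be shared with it and the exon level of Eif4a1 is uncertain. It also names a pseudogene Eif4a3l2, with which Eif4a3 could share reads. The GENCODE annotation of GRCm38 places 5 small nucleolar RNA genes within Eif4a2 and 3 within Eif4a1. Eif4a3 lost the intron call without ESC replicate 1 (limma adjusted p 0.314), and Eif4a2 and Eif4a3 lost it without ESC replicate 2 (0.0576 and 0.320). Eif4a2 also lost it with a filter at a mean of 0.1 RPKM (0.141) and with no filter (0.628). Over the alternatives they ran between 0.00103 and 0.628. Eif4a1 passed without NPC replicate 1 (0.00858) and without NPC replicate 2 (0.00130), within 0.00130 to 0.698. The helicase cofactor Eif4b was at 549 RPKM in NPC and 772 RPKM in ESC (log2 fold change -0.65, adjusted p 0.00517 in the authors' deposited table), and Eif4h was at 288 RPKM in NPC and 282 RPKM in ESC (log2 fold change -0.12, adjusted p 0.699 in the authors' deposited table). Eif4b fell by less than most members, and Eif4h did not pass. Their introns had 4.67 and 9.17 RPKM in the NPC replicates and 22.8 and 21.8 RPKM in the ESC replicates for Eif4b (limma log2 fold change -1.62 with an SE of 0.65, adjusted p 0.0598) and 4.12 and 9.97 RPKM in the NPC replicates and 15.6 and 16.7 RPKM in the ESC replicates for Eif4h (limma log2 fold change -1.19 with an SE of 0.62, adjusted p 0.134), and both passed without NPC replicate 1 (at most 0.0101) or NPC replicate 2 (at most 0.00122), within 0.00107 to 0.758.

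**Figure D4:**
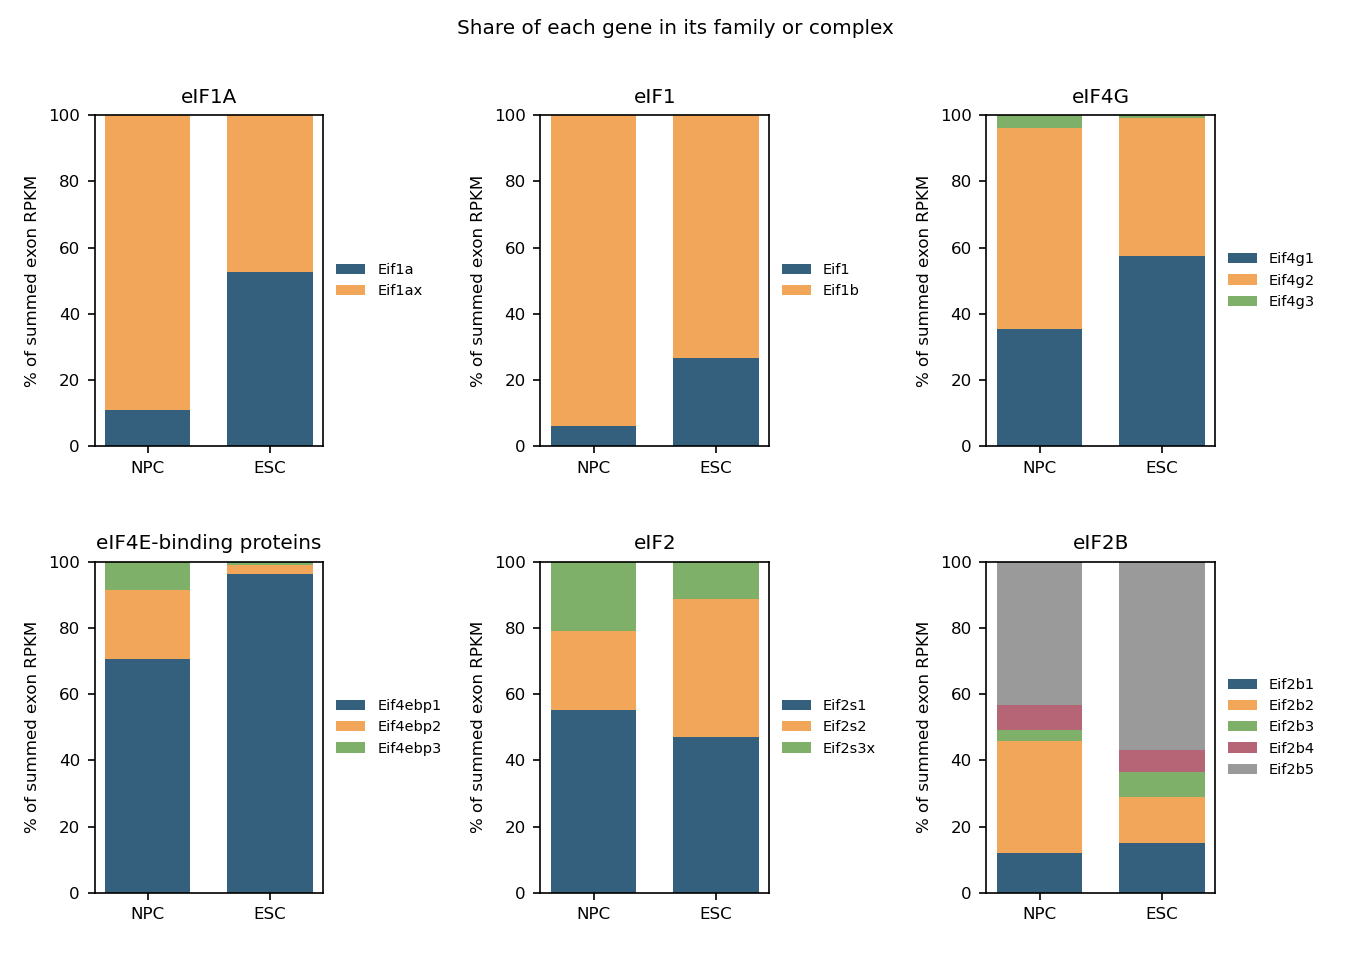
Share of each gene in the summed exon RPKM of its family or complex, in percent, from the authors' pooled values in NPC (left bar) and ESC (right bar) of each panel, with no replicate error. Eif1a gave 10.8% of the eIF1A pair in NPC and 52.5% in ESC, and Eif4ebp1 gave 70.7% of the 4E-binding proteins in NPC and 96.2% in ESC.

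Eif5b and Eif6 both fell on exons, against 33.9% of all tested genes. Eif5b, for the GTPase that joins the subunits, fell to 14.8 RPKM in NPC, against 54.9 RPKM in ESC (log2 fold change -2.02, adjusted p 6.90e-19 in the authors' deposited table). Its introns had 1.42 and 1.28 RPKM in the NPC replicates and 4.42 and 4.31 RPKM in the ESC replicates (limma log2 fold change -1.19 with an SE of 0.23, adjusted p 0.00134), and the call held under all 13 alternatives. Eif6, whose product keeps the large subunit from joining too early, fell to 39.1 RPKM in NPC, against 141 RPKM in ESC (log2 fold change -1.98, adjusted p 2.39e-15 in the authors' deposited table), with introns of 2.22 and 4.07 RPKM in the NPC replicates and 15.6 and 16.0 RPKM in the ESC replicates (limma log2 fold change -2.06 with an SE of 0.50, adjusted p 0.00562). Eif5, for the protein that triggers GTP hydrolysis on eIF2, was measured on introns alone, with 20.9 and 56.9 RPKM in the NPC replicates and 52.9 and 65.4 RPKM in the ESC replicates, where the cell types overlapped (limma log2 fold change -0.75 with an SE of 0.87, adjusted p 0.494). The call of Eif6 was lost without ESC replicate 1 (limma adjusted p 0.264) and without ESC replicate 2 (0.282), within 0.000194 to 0.282 for both called genes over the alternatives. Eif5 passed without NPC replicate 2 (0.00457, within 0.00457 to 0.912). The eIF5A genes, whose products act mainly in elongation and termination and carry hypusine, differed: Eif5a fell to 194 RPKM in NPC, against 615 RPKM in ESC (log2 fold change -1.79, adjusted p 1.83e-13 in the authors' deposited table), and Eif5a2 did not pass, at 18.3 RPKM in NPC and 17.4 RPKM in ESC (log2 fold change -0.08, adjusted p 0.809 in the authors' deposited table). RefSeq names a pseudogene Eif5al3-ps, with which Eif5a could share reads. Eif5a was 10.6-fold above Eif5a2 in NPC and 35.5-fold in ESC. On introns Eif5a had 6.76 and 15.1 RPKM in the NPC replicates and 33.7 and 23.8 RPKM in the ESC replicates (limma log2 fold change -1.39 with an SE of 0.75, adjusted p 0.144) and Eif5a2 had 1.46 and 1.03 RPKM in the NPC replicates and 1.63 and 1.63 RPKM in the ESC replicates (limma log2 fold change -0.24 with an SE of 0.19, adjusted p 0.314). Both passed without NPC replicate 1 (at most 0.0424) and Eif5a without NPC replicate 2 (0.00513), within 0.00513 to 0.799.

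Exons and introns were tested together for 45 genes, which come from the same cells and are not independent. Of these, 18 were called in the same direction on both, 14 were called on exons alone, 5 on introns alone, and 0 in opposite directions. Over all 8380 genes tested on both, 38.4% were called in the same direction, 26.3% on exons alone, 8.03% on introns alone and 0.668% in opposite directions, against 40.0% of the 45 called in the same direction, 31.1% on exons alone and 11.1% on introns alone. The 14 are not shown to lack an intron change, given the spread between the NPC replicates. Intron levels can also hold reads of small nucleolar RNAs within introns. By the GENCODE annotation, 7 of the 49 genes tested on introns host such a gene (14.3%), against 2.18% of 8381 annotated tested genes: Eif4a2, Eif4a1, Eif3a, Eif4g1, Eif4g2, Eif5 and Eif2ak3. The 7 had a median of 38.9 intron RPKM in NPC and 81.5 in ESC, and the other tested members 2.92 in NPC and 9.43 in ESC. The share of small nucleolar RNA in these values was not tested.

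The genes around initiation in the same pathway gave the following counts in the authors' deposited table. Beside them stand the shares over all tested genes, 33.9% lower and 32.3% higher, with a median log2 fold change of -0.07. Of 6 tested genes named after elongation factors, not all of which encode such a factor, 5 fell and 1 rose, with a median log2 fold change of -1.36. Eef2k, for the kinase that slows elongation factor 2, was the riser at 63.6 RPKM in NPC and 6.22 RPKM in ESC (log2 fold change 3.21, adjusted p 5.84e-35 in the authors' deposited table), and Eef1e1 fell most, to 30.8 RPKM in NPC, against 151 RPKM in ESC (log2 fold change -2.43, adjusted p 1.24e-19 in the authors' deposited table). Of 9 termination, recycling and rescue genes 5 fell and 4 did not pass (median -0.57). Abce1, for the factor that splits ribosomes, fell most, to 73.9 RPKM in NPC, against 440.4 RPKM in ESC (log2 fold change -2.71, adjusted p 1.59e-31 in the authors' deposited table), and Gspt1 fell least, by 0.57 on the log2 scale. Of 21 poly(A)-binding and cap-side genes 12 fell, 5 rose and 4 did not pass (median -0.66), from Pabpc5 to the Y-linked helicase gene Ddx3y. Pabpc5, for a poly(A)-binding protein, stood at 12.98 RPKM in NPC and 0.297 RPKM in ESC, a log2 fold change of 5.24 in the authors' deposited table. It passed the exon filter through its NPC level. Ddx3y stood at 0.0466 RPKM in NPC and 2.23 RPKM in ESC, a log2 fold change of -5.51 in the authors' deposited table. It passed the exon filter through its ESC level. Whether its reads in the ESC samples come from the ESC or from the feeder cells was not tested.

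In the lists for control of initiation, 4 of 16 tested genes of the mTORC1 branch fell, 3 rose and 9 did not pass (median log2 fold change -0.36), against 33.9% lower and 32.3% higher of all tested genes. Sesn3, for a sestrin that restrains mTORC1, rose, at 219 RPKM in NPC and 17.5 RPKM in ESC (log2 fold change 3.50, adjusted p 9.87e-45 in the authors' deposited table). Ddit4l, for a relative of the inhibitor REDD1, fell, at 0.333 RPKM in NPC and 29.3 RPKM in ESC (log2 fold change -5.99, adjusted p 9.70e-06 in the authors' deposited table). Ddit4l passed the exon filter through its ESC level. Of 14 genes of the integrated stress response around eIF2 6 fell, 3 rose and 5 did not pass (median -0.68). Nck2, for an adaptor protein, rose most, by 2.36 on the log2 scale, and Trib3, a target of the stress factor CHOP, fell most, by 2.49. Atf4, the transcription factor at the centre of that response, stood at 308 RPKM in NPC and 339.7 RPKM in ESC and did not pass (log2 fold change -0.29, adjusted p 0.300 in the authors' deposited table). Of 9 mitochondrial translation factor genes 4 fell and 5 did not pass (median 0.08), with Tsfm the most lowered call at -1.59 and Mtrf1 the least at -0.92. The Y-linked Eif2s3y, outside the gene set by its selection, stood at 0.0534 RPKM in NPC and 3.41 RPKM in ESC (log2 fold change -5.69, adjusted p 1.07e-07 in the authors' deposited table), and its introns had 0 and 0 reads in NPC and 15 and 20 in ESC. As for Ddx3y, whether these reads come from the ESC or from the feeder cells was not tested.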

How the data were processed

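Gene expression was measured by sequencing in 8 libraries of NPC and ESC. The libraries were ScriptSeq v2 after Ribo-Zero depletion, per the labels' protocols. The submitters' processing notes list DESeq2 1.10.0 and mm9. The aligner, the counting tool, the annotation and the use of strand were not given in the sources used here. In the exon table the authors deposited log2 fold changes, adjusted p-values and RPKM pooled per cell type, which were read as they stand for named genes (84 unnamed rows were left out, and 2350 named genes had no adjusted p). The deposited intron values carry no unit in their header; they were found to be RPKM, since they gave whole reads within 0.001 for all 18393 named genes with a value above 0. The library size recovered for each intron column, from 5186790 to 6500767, was near its intron reads, and that behind the exon RPKM was not given. Intron and exon levels are therefore not compared directly. Replicate numbers did not pair the samples (correlation of deviations 0.02) and no replicate block was used. Intron values were tested with limma 3.58.1 in R 4.3.3 on log2(RPKM + 1), with the mean-variance trend. Benjamini-Hochberg adjustment covered every gene averaging 1 RPKM or more. The scripts were tested on simulated data, in which both cell types had the same spread between replicates. That test therefore does not cover the wider spread of the NPC replicates. The labels do not say whether biological replicates came from separate cultures, so p-values measure the spread between these samples. Genes named with full values are members past a threshold with a log2 fold change of at least 1 on exons or past the intron threshold, and all members of the paralog families; in the other lists, the called genes with the highest and lowest fold change. The members and lists were chosen with earlier results of these data known. Alternatives changed the pseudocount, the filter, the trend, the scaling, the replicate block and the replicates kept.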

Additional observations from a re-analysis of the deposited data

How the results depend on the processing

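Exon counts depend on the authors' test alone: with a mean of at least 10 RPKM, no filter, an adjusted p under 0.01 or ratios of the pooled RPKM, 31 or 32 of the tested genes fell and 2 or 3 rose. On introns, limma called 24 of 49 lower and 2 higher with a median log2 fold change of -1.32. A pseudocount of 0.1 gave a median of -1.60 and centred columns one of -0.92. With no filter on low values, 9 of 53 were lower and 0 higher; with no mean-variance trend, 28 of 49 were lower and 0 higher. With the replicate block, 19 were lower and 2 higher. Added after seeing the data, subtraction of the receptor-gene background left 15 lower and 1 higher, and voom on the recovered reads gave 31 lower and 0 higher with a median of -1.65. Leaving out 1 replicate at a time gave 4 to 42 lower, 1 to 5 higher and medians of -1.67 to -0.96.

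Signs turned only in genes that were not called: with centred columns Eif2ak3 stood at 0.21, Eif2b4 at 0.012, Eif4g2 at 0.18 and Eif5a2 at 0.16, and with a replicate left out Eif2b2 lay between -0.17 and 0.39 and Eif4g2 between -1.09 and 0.66. The cause of these changes was not tested. Precision on introns is limited by 2 replicates per cell type and by low reads in Eif1b and Eif4ebp3; exon levels have no replicate error.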
